A study of Mus musculus with 4 samples.

Results

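The 34 genes described here encode chaperones, disulfide isomerases, degradation factors and stress sensors of the endoplasmic reticulum (ER), together with regulators of the unfolded protein response. They were chosen by name from knowledge of the pathway, with earlier results of these data already known. Each was found as 1 row among the 31247 genes of the count table. Expression was measured by RNA sequencing in cells sorted from mouse lungs on postnatal day 7 for a green fluorescent Pdgfrb reporter, which the labels call myofibroblasts. The 2 wild-type (WT) libraries carry the PDGFRb-GFP reporter, and the 2 Dnmt1 conditional knockout (CKO) libraries carry PDGFRb-GFP, Tbx4-rtTA, Tet-O-Cre and Dnmt1-D/D. In the CKO a Tbx4-driven, doxycycline-responsive activator turns on Cre, so the deletion of Dnmt1, the maintenance DNA methyltransferase, is aimed at the lung mesenchyme. The labels do not say whether the WT mice carried the Tbx4-rtTA or Tet-O-Cre alleles, or which animals shared a litter. Libraries are named by genotype and by the letter A or B, which carries no pairing, and 2 values given for a genotype stand in that order.

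Proteins that enter the ER fold there with the help of chaperones of the Hsp70 and Hsp90 classes, of lectin chaperones that hold glycoproteins, and of isomerases that form and reshuffle disulfide bonds. Proteins that fail to fold are drawn back into the cytosol and degraded. Unfolded protein activates 3 sensors in the ER membrane. IRE1 (Ern1) splices the Xbp1 mRNA, ATF6 is cut in the Golgi to release a transcription factor, and PERK (Eif2ak3) phosphorylates eIF2alpha and so favours translation of ATF4. XBP1 and ATF6 drive genes of folding and degradation. Lung myofibroblasts secrete collagen and elastin, which fold in the same compartment. Counts per gene cannot tell spliced from unspliced Xbp1, nor cut ATF6 or phosphorylated PERK from the inactive forms.

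The sequences below show the promoter elements by which this response is usually recognised, in the members that hold one. The ER stress response element (ERSE) is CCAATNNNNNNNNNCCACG, bound by NF-Y at CCAAT and by ATF6 or XBP1 at CCACG, and ERSE-II is ATTGGNCCACG. The 250 bases upstream of each RefSeq transcript start (GRCm38.p6) were searched on both strands for exact matches. An element that crosses the start or differs by a letter was not counted. A window was found for 29 of the 34 members, and not for Hyou1, Manf, Hspa13, Atf6 and Derl1. ERSE was present in 9 of the 29 (31%) and in 35 of 27025 genes with a window (0.13%). ERSE-II was present in 1 member (3.45%) and in 10 of the 27025 genes (0.037%). Genes of this response are partly known by these elements, so that their presence in the list is a description and not a finding. Each line reads 5′ to 3′ along the strand of the match, with the 2 boxes in capitals.
Hspa5, chr2:34772020-34772048, plus strand: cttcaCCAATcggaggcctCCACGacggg
Hsp90b1, chr10:86705633-86705661, minus strand: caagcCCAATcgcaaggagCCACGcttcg
Hsp90b1, chr10:86705528-86705556, plus strand: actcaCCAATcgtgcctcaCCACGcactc
Calr, chr8:84847070-84847098, plus strand: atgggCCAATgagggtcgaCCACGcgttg
Canx, chr11:50325795-50325823, minus strand: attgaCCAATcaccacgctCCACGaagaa
Dnajc3, chr14:118937822-118937850, plus strand: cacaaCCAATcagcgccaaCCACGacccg
Creld2, chr15:88819515-88819543, minus strand: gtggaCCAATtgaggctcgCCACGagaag
Pdia6, chr12:17266486-17266514, plus strand: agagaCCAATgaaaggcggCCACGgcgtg
Syvn1, chr19:6046527-6046555, plus strand: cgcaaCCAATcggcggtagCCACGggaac
Derl3, chr10:75893237-75893265, minus strand: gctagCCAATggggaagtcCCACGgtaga
Herpud1 (ERSE-II), chr8:94386368-94386396, plus strand: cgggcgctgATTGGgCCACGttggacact

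Counted from the transcript start, the elements lay between -212 and -26, and Hsp90b1 held 2 of them. A shorter element, the core TGACGTG of the unfolded protein response element, was found in Hspa5 and Txndc5 (6.9% of the 29) and in 499 of all genes with a window (1.85%). The factors' binding was not measured in these samples.

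Before the members' results, the libraries themselves are described. Depth ran from 23071657 to 26420648 counted reads. WT B had reads on 27643 genes and the other 3 libraries on 21883 to 22532, and CKO A alone held reads of the Y-linked gene Ddx3y (2494). The column names of WT B and both CKO libraries open with a shared number that WT A lacks, and what it marks is not stated. Dnmt1, the targeted gene, was at 144 and 115 CPM (reads scaled to a common library size) in WT, and at 78.1 and 29.5 in CKO. It was lower in both CKO libraries but did not pass the test (log2 difference -1.27 ± 0.57 SE, n = 2 per genotype, edgeR adjusted p = 0.31). Myofibroblast and fibroblast markers were abundant in all 4 libraries, with 75480 and 74900 CPM summed over 12 genes in WT and 83420 and 93220 in CKO. Single markers moved both ways. Both CKO libraries stood above both WT libraries in 4 of the 12 and below in 5. Cnn1 alone was called higher in edgeR and 0 were lower, against 4.85% and 2.75% of all tested genes. DESeq2, a second test, called 2 higher and 4 lower, against 6.48% and 3.77%. Of 8 plasma and B cell markers, a secretory lineage rich in these chaperones, 6 stayed under 1 CPM in every library and Jchain had at most 1 read. The other two were Ighm, at 1.18 to 2.74 CPM, and Sdc1, at 89.9 to 117 CPM, and Sdc1 made up most of the list's sum of 116 and 94.4 CPM in WT and 121 and 105 in CKO. Nothing in the labels says whether libraries of a genotype came from separate litters, so the p-values measure only the spread between these libraries.

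Of the ER chaperone and unfolded protein response genes 4 rose in CKO and none fell. These were the BiP cofactors Dnajb9 and Dnajb11, the folding factor Creld2 and the degradation factor Herpud1, at 1.37-fold to 1.56-fold of WT. Of the 34 members, all of which passed the filter on low counts, 4 were higher (11.8%) and 0 lower at an adjusted p under 0.05 in edgeR's quasi-likelihood test. Among all 15210 tested genes 4.85% were called higher and 2.75% lower. At an unadjusted p under 0.05, 16 members were higher and 0 lower, where 13.1% of all tested genes were higher and 12.1% lower. The log2 difference lay above 0 for 31 members, with a median of 0.28, while the median over all tested genes was -0.01. In 26 members both CKO libraries stood above both WT libraries and in 0 both stood below, whereas over all tested genes 27.8% had both CKO libraries above and 29.2% both below. The members are abundant transcripts, with 26 of the 34 in the quartile of highest mean expression, where 3.37% of genes were called higher 3.79% lower, and the median log2 difference was -0.02. Summed over the 34 genes, the level was 7339 and 7233 CPM in WT and 8895 and 8716 in CKO, a ratio of 1.21 between the means. In bulk RNA a change in the share of a cell type and a change in RNA per cell cannot be told apart.

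The calls rested on both WT libraries being present. When WT A was left out, 0 members passed in edgeR and 2.31% of all genes were called higher and 1.33% lower. At an unadjusted p under 0.05 this fit had 6 members higher and 0 lower, against 8.53% and 7.85% of all genes. When WT B was left out, 0 passed as well, and 1.56% of all genes were called higher and 0.574% lower. Unadjusted, 9 members were higher and 0 lower, against 9.15% and 6.55% of all genes. Leaving out CKO A gave 5 higher members and 0 lower, against 7.88% and 3.38% of all genes, and leaving out CKO B gave 5 and 0, against 3.8% and 2.62%. Over these 4 fits the members' median log2 difference was 0.30, 0.28, 0.31 and 0.29. DESeq2 called 12 members higher and 0 lower, where it called 6.48% of all genes higher and 3.77% lower. With no filter on low counts edgeR called 11 higher and 0 lower, against 4.94% and 2.93% of all genes. At an adjusted p under 0.01 edgeR called 0 members (1.31% of all genes higher and 0.276% lower). The authors' deposited table lists 4 members as higher and 0 as lower at an adjusted p under 0.05, against 3.04% and 1.26% of its genes. In the authors' deposited table these are Dnajb9, Creld2, Herpud1 and Dnajb11 too.

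**Figure D1:**
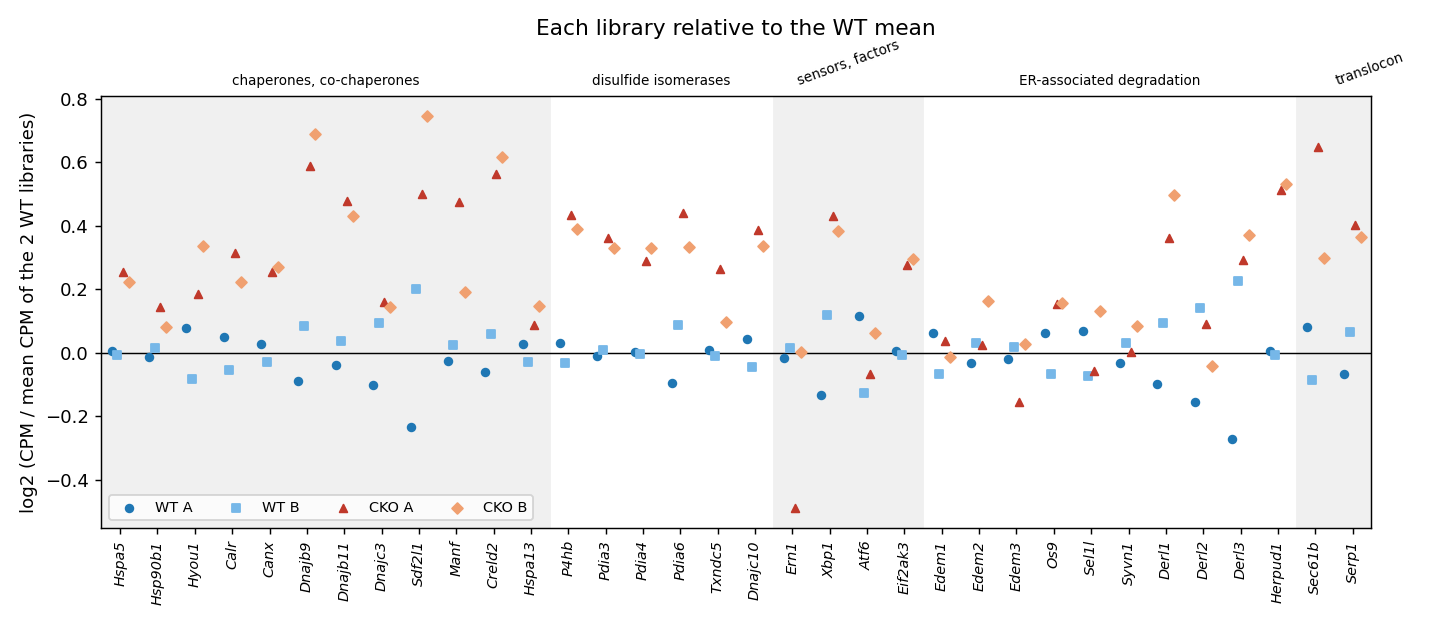
Level of each of the 34 members in each library relative to the mean of the 2 WT libraries, as log2 of the CPM ratio (y axis), with the members grouped by role (x axis, shaded blocks). Blue points are WT and red or orange points CKO; in 26 members both CKO points lie above both WT points, and the 8 members with overlapping groups are sensors (Ern1 and Atf6) and degradation factors.

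Of the 12 chaperones and co-chaperones 3 rose, Dnajb9, Creld2 and Dnajb11, and BiP itself was not among them. All 12 had log2 differences above 0 and groups that did not overlap. Among all tested genes 4.85% were called higher, and 27.8% had both CKO libraries above both WT libraries. Dnajb9 (chromosome 12, 44205559 to 44210326, GRCm38), an ER-resident J domain protein that binds and represses IRE1, was at 37.5 and 42.3 CPM in WT and 59.9 and 64.3 in CKO. Both CKO libraries stood above both WT libraries by more than the gap within either genotype, a 1.56-fold difference (log2 0.64 ± 0.12 SE, edgeR adjusted p = 0.0198). Creld2 (chromosome 15, 88819646 to 88826683), a secreted and ER-resident factor with disulfide isomerase activity, was at 35.3 and 38.4 CPM in WT and 54.4 and 56.5 in CKO, again without overlap (log2 0.59 ± 0.11, edgeR adjusted p = 0.0212). Dnajb11 (chromosome 16, 22857845 to 22879634), a J domain cofactor that delivers unfolded proteins to BiP, was at 78.2 and 82.3 CPM in WT and 112 and 108 in CKO, 1.37-fold higher (log2 0.45 ± 0.11, edgeR adjusted p = 0.0443). Dnajb11 lost its call in 6 of 11 other settings (library size alone, limma-voom, no robust estimation and without WT A, WT B or CKO B), where its edgeR or limma adjusted p reached 0.219. Dnajb9 and Creld2 lost theirs without WT A and without WT B, with an edgeR adjusted p of up to 0.131 and 0.154.

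None of the large chaperones passed. Hspa5, which encodes BiP, the main Hsp70 of the ER and a standard readout of this response, was at 754 and 747 CPM in WT and 897 and 877 in CKO. The 2 genotypes did not overlap, but the difference of 1.18-fold did not pass (log2 0.24, 95% interval -0.05 to 0.53, edgeR adjusted p = 0.279). Hsp90b1, the Hsp90 of the ER, was at 588 and 600 CPM in WT and 657 and 630 in CKO (log2 0.11, interval -0.17 to 0.39). The lectin chaperones Calr and Canx and the exchange factor Hyou1 had log2 differences of 0.27, 0.26 and 0.26, with an edgeR adjusted p of 0.254, 0.214 and 0.220. The interval of each of these 5 genes reached below 0, and the highest upper bound was 0.58 for Calr.

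Among the remaining folding factors the largest difference was that of Sdf2l1, a cofactor of Dnajb9 and Dnajb11 in complexes with BiP. It was the lowest chaperone per length (5.17 RPKM as the WT mean, where RPKM is CPM divided by the exon length in kilobases). Its level was 4.87 and 6.59 CPM in WT and 8.10 and 9.61 in CKO, and the log2 difference of 0.62 ± 0.22 did not pass (edgeR adjusted p = 0.132). Manf, a secreted BiP partner that is retained in the ER, was at 57.2 and 59.3 CPM in WT and 81.0 and 66.5 in CKO, so that CKO A stood well above CKO B. It passed without CKO B (edgeR adjusted p = 0.0492) and in none of the other settings. Dnajc3, a BiP cochaperone that also inhibits PERK, and Hspa13, a small Hsp70-like ATPase, had log2 differences of 0.15 and 0.12. In the Manf gene 146 exonic bases overlap Dcaf1 on the opposite strand, and whether counting used strand is unknown here, so reads of the 2 genes cannot be told apart there.

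None of the 6 disulfide isomerases passed in edgeR, and 5 were higher and 0 lower at an unadjusted p under 0.05 (13.1% and 12.1% of all genes). In all 6 the CKO values exceeded both WT values (27.8% of all tested genes), with log2 differences between 0.18 and 0.41. P4hb, the protein disulfide isomerase that is also the beta subunit of collagen prolyl 4-hydroxylase, was at 1059 and 1013 CPM in WT and 1399 and 1358 in CKO, a ratio of 1.33 (log2 0.41, interval 0.10 to 0.72, edgeR adjusted p = 0.102). Pdia6, which acts on BiP clients and on IRE1, was at 251 and 285 CPM in WT and 364 and 338 in CKO (log2 0.39, edgeR adjusted p = 0.0956). Dnajc10, a J domain reductase that opens disulfides before degradation, was at 141 and 132 CPM in WT and 179 and 173 in CKO (log2 0.36, edgeR adjusted p = 0.0818). Pdia3, which works with the lectin chaperones on glycoproteins, and Pdia4 had log2 differences of 0.35 and 0.31. Txndc5 had the smallest of the 6, at 0.18, with 353 and 349 CPM in WT and 422 and 375 in CKO. DESeq2 called 4 of the 6, P4hb, Pdia3, Pdia6 and Dnajc10, where it called 6.48% of all genes higher. The summed level of the 6 was 2586 and 2567 CPM in WT and 3360 and 3230 in CKO.

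Of the 4 sensors and transcription factors 0 passed in edgeR. At an unadjusted p under 0.05, 2 were higher and 0 lower (13.1% and 12.1% of all genes). DESeq2 called 1 higher, where it called 6.48% of all genes higher. Xbp1, the transcription factor gene of the IRE1 branch, was at 96.9 and 116 CPM in WT and 143 and 139 in CKO. The groups did not overlap, and the difference did not pass in edgeR (log2 0.41, interval 0.12 to 0.69, adjusted p = 0.0860). DESeq2 and the fit with no filter on low counts called it. Eif2ak3, encoding PERK, was at 31.2 and 30.9 CPM in WT and 37.6 and 38.1 in CKO, with under 1 CPM between the libraries of either genotype (log2 0.29, edgeR adjusted p = 0.152). Atf6 overlapped between genotypes, at 105 and 88.6 CPM in WT and 92.4 and 101 in CKO, and its interval ran from -0.29 to 0.29. Ern1, encoding IRE1, was at 37.7 and 38.5 CPM in WT and 27.1 and 38.2 in CKO. Its CKO A value stood apart, and the other 3 libraries lay together (log2 -0.22, edgeR adjusted p = 0.449). Without CKO A the log2 difference of Ern1 was 0.03, and without CKO B it was -0.48 (edgeR adjusted p = 0.0560).

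Of the 10 degradation factors 1 rose, Herpud1 (4.85% of all tested genes were called higher). In 6 the groups overlapped, as in 6538 of the 15210 tested genes. Herpud1 (chromosome 8, 94386438 to 94395377), a ubiquitin-like membrane protein that organises the retrotranslocation complex, rose from 87.1 and 86.3 CPM in WT to 124 and 125 in CKO, 1.44-fold higher with the libraries of each genotype almost equal (log2 0.52 ± 0.11 SE, edgeR adjusted p = 0.0263). It was called in 9 of 11 other settings and lost the call without WT A and without WT B. Derl1, a derlin of the retrotranslocation channel, was at 54.3 and 62.0 CPM in WT and 74.7 and 82.1 in CKO and did not pass (log2 0.43, edgeR adjusted p = 0.0758), but passed without CKO A. Among the rest, Edem1, Edem2 and Edem3, which trim or recognise mannose on misfolded glycoproteins, had log2 differences of 0.01, 0.10 and -0.06. Sel1l and Syvn1, the adaptor and the ubiquitin ligase of the same complex, had differences of 0.04 and 0.04. The groups overlapped in all 5 of these and in Derl2, and their intervals lay within -0.33 and 0.41. The lectin Os9 was at 199 and 182 CPM in WT and 212 and 212 in CKO (log2 0.16, edgeR adjusted p = 0.421). Derl3, which is enriched in secretory cells, was close to absent, with 0.746 and 1.05 CPM in WT and 1.10 and 1.16 in CKO, and its interval ran from -0.68 to 1.33 at 17 to 29 reads per library.

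Standard errors of the log2 differences ran from 0.106 (Pdia4) to 0.165 (Ern1), apart from the low transcripts Sdf2l1 (0.224) and Derl3 (0.436). The limit on strand also touches other members with exons shared with a gene on the opposite strand that had reads. These are Derl2 with Mis12 (231 bases), Syvn1 with Mrpl49 (91), Serp1 with Eif2a (72), Txndc5 with Bmp6 (224) and Gm31834 (311), Eif2ak3 with Gm43292 (485), Hsp90b1 with 1810014B01Rik (415) and Pdia6 with Atp6v1c2 (50). Pdia3 shares 18 bases with Catsper2. Among these partners 1810014B01Rik, Gm43292, Gm31834, Atp6v1c2 and Catsper2 had at most 55 reads in a library.

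The last pair serves the translocon, the channel through which new proteins enter the ER. Sec61b, its small beta subunit, was at 50.3 and 44.8 CPM in WT and 74.4 and 58.5 in CKO. The groups did not overlap and CKO A was highest, but the gene missed the threshold (log2 0.48, edgeR adjusted p = 0.0829). Serp1, which stabilises membrane proteins at the translocon during stress, was at 112 and 123 CPM in WT and 156 and 152 in CKO (log2 0.38, edgeR adjusted p = 0.0758). DESeq2 called both, where it called 6.48% of all genes higher. Without CKO B the edgeR log2 difference of Sec61b was 0.66.

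**Figure D2:**
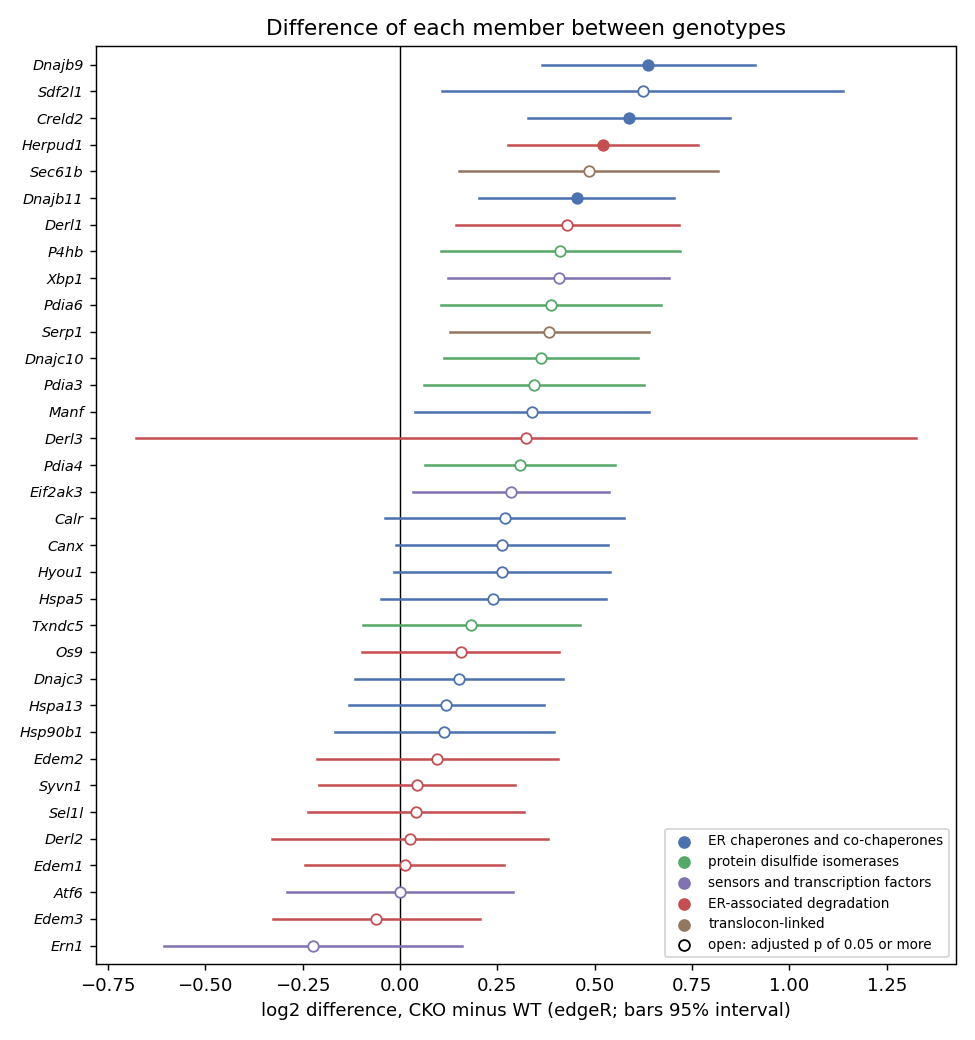
Log2 difference of CKO minus WT for each of the 34 members (x axis, edgeR, n = 2 per genotype), ordered by size, with bars for the 95% interval and colours for the role. Filled points mark the 4 members with an adjusted p under 0.05 (Dnajb9, Creld2, Herpud1 and Dnajb11), and the lowest points are Ern1 (-0.22) and Edem3 (-0.06).

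Each CKO library was also set against the WT mean on its own, since Dnmt1 was lower in CKO B than in CKO A. The median log2 ratio to the WT mean, on log2(CPM + 1), was 0.27 over the members in CKO A and 0.25 in CKO B, and CKO B stood above CKO A in 18 of the 34. In 8 of the 10 degradation factors CKO B was the higher CKO library, whereas in 5 of the 6 disulfide isomerases and in both translocon genes it was CKO A. Over all tested genes CKO B stood above CKO A in 7615 of 15210. Genes of a role are not replicates, and each contrast here is of 1 library with 1 library. Within WT, WT B stood above WT A in 18 of 34, with a median log2 ratio of 0.02. With 2 libraries in a genotype these within-genotype contrasts have no test.

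Levels per length were highest for P4hb and Calr. RPKM was computed over the union of annotated exons, because the deposited gene length equals the sum of exons over all annotated transcripts to within 2% for 98.5% of genes and is up to 4.69 times the union for a member (Syvn1). P4hb led with 362 RPKM as the WT mean, followed by Calr (320), Pdia3 (190), Hspa5 (178), Hsp90b1 (147) and Canx (97.6). Pdia4 (79.1 RPKM), Txndc5 (78.1), Os9 (72.5) and Pdia6 (71.6) came next, and down this order the WT libraries of neighbours did not overlap until Os9 and Pdia6, which did. The called genes ranked below all of these, with 37.2 RPKM for Herpud1, 27.0 for Creld2, 24.8 for Dnajb11 and 15.6 for Dnajb9 in WT. The sensors Eif2ak3 and Ern1 stood at 5.15 and 4.66 RPKM and Derl3 was lowest at 0.452. In CKO the same 6 genes led, P4hb at 482 and Calr at 386 RPKM.

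**Figure D3:**
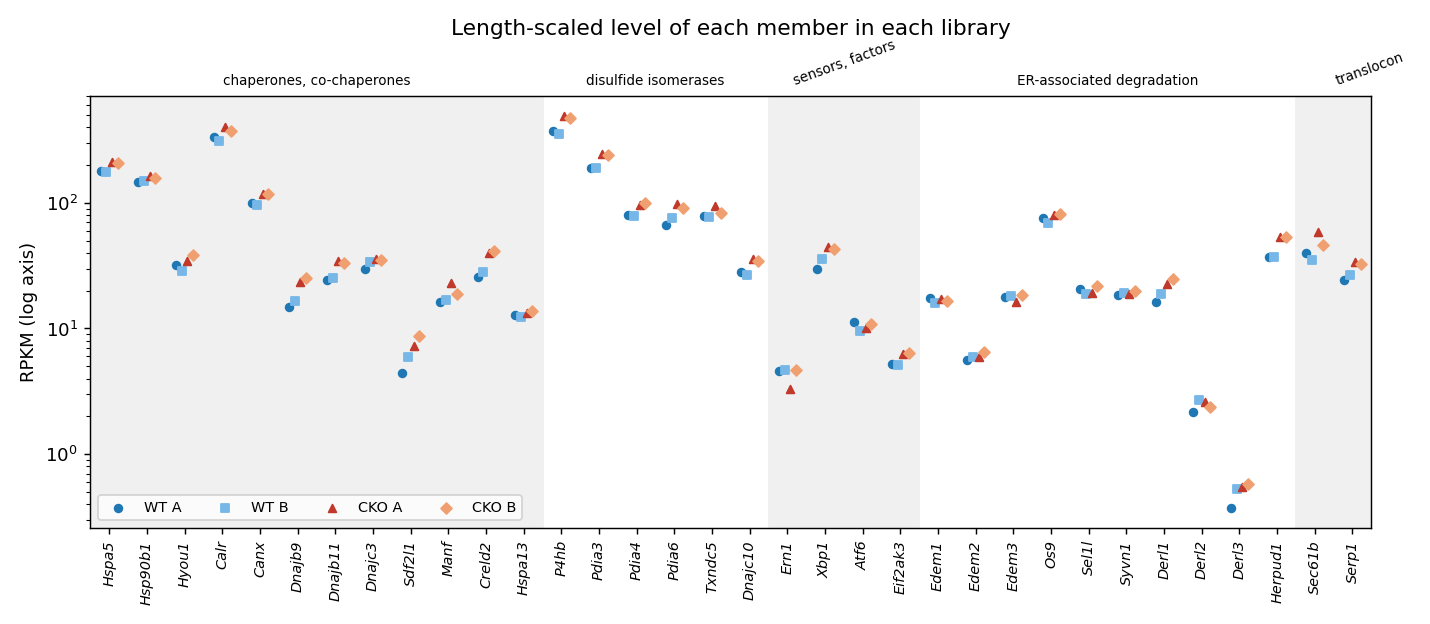
Length-scaled level of each of the 34 members in each of the 4 libraries, in RPKM on a log axis (y), grouped by role (x). P4hb and Calr are highest, at 362 and 320 RPKM as WT means, and Derl3 is lowest at 0.452.

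The log2 differences of members with and without an upstream ERSE or ERSE-II are given side by side, with no test. The 10 members with such an element had log2 differences of 0.04 (Syvn1) to 0.59 (Creld2) with a median of 0.27, and 2 of them, Creld2 and Herpud1, were called. The 19 members with a window and no exact match to either element in it had a median of 0.31, and 2 of them, Dnajb9 and Dnajb11, were called. Of the 19 other tested genes with ERSE or ERSE-II, 5 were higher and 1 lower, and the median was 0.16. Among all tested genes 4.85% were called higher and 2.75% lower. The higher genes were Tdrd9 (log2 3.03), Xlr3a (3.25), Xlr3b (2.34), Xlr3c (8.30) and Gm7579 (10.8), and the lower gene was Zfp57 (-0.88). Xlr3a, Xlr3b and Xlr3c belong to the same gene family, so their calls are not independent. The upstream stretches of the 2 called members that hold an element are given here in the direction of the gene, 160 bases each and ending at the base before the RefSeq start, with the element in capitals. On this strand the Creld2 element reads as its reverse complement. The Herpud1 stretch ends in ccaat, 9 bases and ccac, the letters of ERSE short of its last base. That base would lie past the searched window, so this stretch was not counted as ERSE.
Creld2, chr15:88819486-88819645, plus strand: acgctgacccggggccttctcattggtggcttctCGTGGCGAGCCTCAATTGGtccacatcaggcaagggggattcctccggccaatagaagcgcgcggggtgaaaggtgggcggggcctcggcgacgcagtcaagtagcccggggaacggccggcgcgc
Herpud1, chr8:94386269-94386428, plus strand: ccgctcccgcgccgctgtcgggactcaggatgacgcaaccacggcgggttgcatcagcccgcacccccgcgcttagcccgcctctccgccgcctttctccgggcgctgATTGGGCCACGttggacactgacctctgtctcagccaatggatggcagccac

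Further genes of the response and of the secretory pathway were counted from lists. In the list named for the PERK and ATF4 arm, the branch that acts through translation control, 14 of 20 tested genes were higher and 0 lower (median log2 difference 0.93). Among all tested genes 4.85% were called higher and 2.75% lower. Whether PERK itself acted on these genes was not tested. Ddit4 was at 15.3 and 14.6 CPM in WT and 34.6 and 41.9 in CKO, and Sesn2 at 29.3 and 29.5 in WT and 58.0 and 61.5 in CKO (edgeR adjusted p = 0.00340 and 0.00369). Slc3a2 was 2.20-fold higher (edgeR adjusted p = 0.00369). Of that arm's own transcription factors and regulators, Cebpb (log2 1.13), Atf5 (0.95) and Atf3 (0.90) rose (edgeR adjusted p = 0.00583, 0.00614 and 0.0231), the last not without WT A or without CKO B. Atf4 (log2 0.26), Ddit3 (0.34), which encodes the stress factor CHOP, and Nupr1 (0.52) did not pass (edgeR adjusted p = 0.248, 0.132 and 0.153). Leaving out WT A took the arm's count to 9, and leaving out WT B to 10, while it was 15 and 12 with CKO A or CKO B left out. Whether the 34 members and this arm differ in how often they changed was not tested.

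Lists nearer to folding and secretion gave few calls in edgeR, where 4.85% of all tested genes were called higher and 2.75% lower. Of 16 genes of N-glycosylation 2 were higher, Krtcap2 (log2 0.66) and Tusc3 (0.48), both of the oligosaccharyltransferase (edgeR adjusted p = 0.0157 and 0.0421). Of 21 genes of translocation and signal peptide processing 2 were higher, the signal peptidase subunit Sec11a (log2 0.54) and the translocon-associated Ssr4 (0.49). Of 20 genes of collagen folding and modification 2 were higher, the lysyl hydroxylases Plod1 (log2 0.58) and Plod2 (0.61), while Serpinh1, the collagen chaperone, was at 2104 and 1934 CPM in WT and 2838 and 2966 in CKO without passing (edgeR adjusted p = 0.0733). These 3 lists had 0 lower members and medians of 0.34, 0.23 and 0.30. DESeq2 called 7, 6 and 4 genes of these lists higher, against 6.48% of all genes. With no filter on low counts edgeR called 8, 6 and 7 higher, against 4.94% of all genes. With library size alone, with limma-voom and without robust estimation, each list had 1 called gene. Of all genes 4.83%, 3.73% and 4.35% were called higher in these settings. Of 11 other settings, Plod2 was called in 3, Ssr4 in 4 and Tusc3 in 6. Leaving out WT B, edgeR called 0 in each (5, 6 and 7 higher at an unadjusted p under 0.05), and leaving out WT A it called 1, Plod1.

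In edgeR the other 5 lists held 2 called genes between them, where 4.85% of all tested genes were called higher and 2.75% lower. Among processing factors and partners of the sensors Creb3l2, an ER-membrane transcription factor of secretory cells, was lower (996 and 854 CPM in WT, 617 and 534 in CKO, log2 -0.69, edgeR adjusted p = 0.0303), and its relative Creb3l1 was not called (log2 0.90, edgeR adjusted p = 0.0811). The call of Creb3l2 was lost without WT A, without WT B and without CKO B. Of 20 other ER oxidoreductases and folding factors, 21 other degradation genes and 20 genes of ER exit, edgeR called 0. At an unadjusted p under 0.05, 8, 2 and 3 were higher and 1, 0 and 1 lower (13.1% and 12.1% of all genes). DESeq2 called 0 genes in these 3 lists as well. The lowest p in each belonged to Tmx1 (log2 0.44), Selenok (0.31) and Surf4 (0.33). Among processing factors and partners of the sensors DESeq2 called 3 higher and 1 lower, and among cytosolic heat shock genes 4 higher. Of all genes it called 6.48% higher and 3.77% lower. With no filter on low counts edgeR called 1 higher and 1 lower in the list of processing factors and 3 heat shock genes higher (4.94% and 2.93% of all genes). That fit also called 2 of the other oxidoreductases and folding factors higher. In the cytosol, 1 of 15 heat shock genes was higher, the small heat shock protein gene Hspb1 (26.8 and 16.6 CPM in WT, 69.4 and 98.2 in CKO, edgeR adjusted p = 0.0214), a call lost without CKO A and without CKO B.

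**Figure D4:**
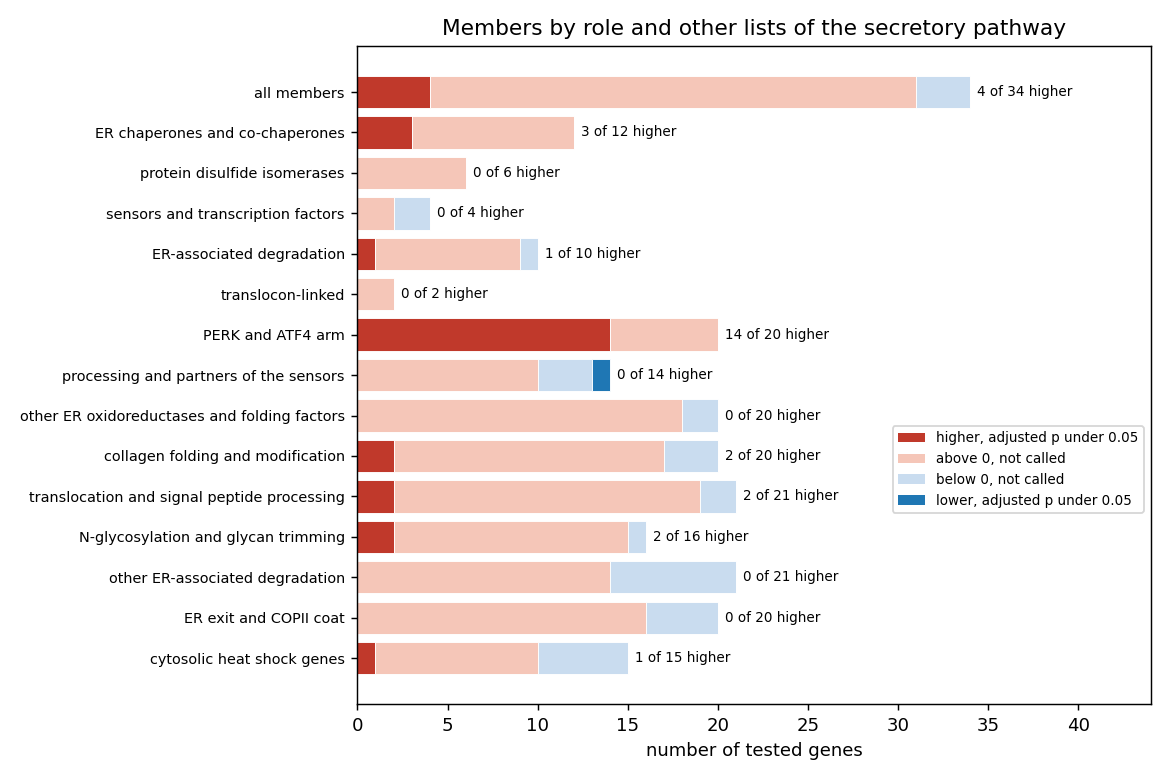
Number of tested genes (x axis) that were called higher or lower, or not called with a difference above or below 0, in the 34 members, their 5 roles and 9 further lists (y axis), from edgeR at an adjusted p under 0.05. The PERK and ATF4 arm has 14 of 20 genes called higher, the members 4 of 34, and only Creb3l2 is called lower.

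Some markers of other cells and of cell isolation were called between genotypes, and their part in the members' results was not tested. For comparison, edgeR called 4.85% of all tested genes higher and 2.75% lower. Leukocyte markers, 4 of 9 tested called higher, summed to 35.4 and 46.4 CPM in WT and 78.4 and 51.9 in CKO. Both CKO libraries stood above both WT libraries in 6 of the 9 and below in 2, against 27.8% and 29.2% of all tested genes. Adventitial fibroblast markers, 5 of 8 called higher, summed to 1106 and 1138 CPM in WT and 1469 and 1578 in CKO. Immediate early and dissociation genes, 4 of 14 called higher, summed to 4581 and 3762 CPM in WT and 4688 and 6432 in CKO. Endothelial, epithelial, mesothelial and plasma and B cell markers had 0 called genes in edgeR and DESeq2. At an unadjusted p under 0.05 in edgeR, 1 endothelial gene was higher (13.1% of all genes). Epithelial markers summed to 60.7 and 186 CPM in WT and 149 and 80.5 in CKO. Endothelial markers summed to 74.5 and 103 CPM in WT and 134 and 84.25 in CKO. Mesothelial markers summed to 1.71 and 7.64 CPM in WT and 16.2 and 1.81 in CKO. These sums overlapped between genotypes and differed between libraries of a genotype. Wt1 and Jchain were at 2 reads or fewer in every library, and Pou2af1 was at 0 in WT A.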

How the data were processed

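RNA of sorted lung cells was sequenced, and the deposited table holds the authors' read counts, not normalized, for each gene. Per the submitters' processing notes, the genome build was GRCm38.p6 and the tools, in no stated order, were STAR, Trimmomatic 0.36, cutadapt 2.5, edgeR 3.28.1 and FastQC 0.11.8. How reads were assigned to genes, and whether by strand, is not given in the sources used here. Per the file headers, the authors' table also holds log2 values (a fold change and a mean CPM) and the p-value of each gene, raw and adjusted. A further 4 columns of per-sample values were not used.

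Columns named Control and Mutant were read as WT and CKO. All genes were fitted in R 4.3.3 with edgeR 4.0.16 (filterByExpr with a minimum count of 10, TMM, glmQLFit with robust estimation, glmQLFTest), with Benjamini-Hochberg adjustment over 15210 genes. The SE is the absolute log2 difference over the square root of F, and the 95% interval uses the t quantile of the fit's degrees of freedom. Other settings used DESeq2 1.42.0, limma-voom (limma 3.58.1), other scaling, filters and thresholds, and leaving out each library. The script was tested on simulated counts. Exon lengths and coordinates came from GENCODE M21 and promoter windows from RefSeq (both GRCm38).

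The 34 members and all lists were chosen with earlier results of these data known. Named are all members, Dnmt1, up to 3 tested genes of lowest p per pathway list, and the called genes of pathway lists with 5 or fewer calls. Markers are given by list sums, with defining markers at or near 0 named. Atf3, Atf4, Atf5, Cebpb, Ddit3, Nupr1, Ighm, Sdc1, Cnn1 and Ddx3y were named after their values were seen. So were the called genes with ERSE or ERSE-II that are not members.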

Additional observations from a re-analysis of the deposited data

How the results depend on the processing

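The number of members higher in CKO was 4 and became 12 in DESeq2, 11 with no filter on low counts and 0 at an adjusted p under 0.01, and it ranged from 0 to 5 when each library was left out in turn. With no filter on low counts 4.94% of all genes were called higher. The cause of these shifts was not tested, except that leaving out a library leaves 1 sample in an arm, assumed to vary like the other genotype. The count of lower members was 0 in all settings, and the median log2 difference stayed positive in each of them. Among values of single members under the other settings 328 kept direction and side of the threshold, 18 passed anew, 12 no longer passed and 16 changed sign, all of members that were not called. Atf6 was at 0.012 with RLE size factors, 0.012 in DESeq2, 0.0032 in limma-voom, 0.037 with no filter, 0.0066 at a mean CPM of at least 1, and from -0.11 to 0.14 with a library left out. With library size alone Edem1 was at -0.016 and Derl2 at -0.0077. With a library left out Edem1 ran from -0.041 to 0.088, Derl2 from -0.10 to 0.19, Sel1l from -0.047 to 0.16, Ern1 from -0.48 to 0.031 and Edem3 from -0.14 to 0.055. No paired analysis was possible because the count columns carry no replicate number of the labels. Derl3 and Sdf2l1, at few reads, are limited by depth.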
